A study of Mus musculus with 6 samples.

Results

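The D cyclins and the CDK inhibitors are the positive and negative inputs to the kinases that carry a cell through G1. They are represented by 10 of the 24908 gene symbols in the table of transcript levels, taken by symbol (written there in capitals, as CCND1, CCND2, CCND3, CDKN1A, CDKN1B, CDKN1C, CDKN2A, CDKN2B, CDKN2C and CDKN2D): Ccnd1, Ccnd2 and Ccnd3, which encode cyclins D1, D2 and D3, Cdkn1a, Cdkn1b and Cdkn1c, which encode the CIP/KIP inhibitors p21, p27 and p57, and Cdkn2a, Cdkn2b, Cdkn2c and Cdkn2d, which encode the INK4 inhibitors p16 (and, in another reading frame, p19Arf), p15, p18 and p19. Their levels were measured by bulk RNA-seq in the ventral (VP), dorsolateral (DLP) and anterior (AP) prostate lobes of an FVB Hi-MYC mouse (MYC) and of a wild-type littermate (WT), both 12 weeks old and kept on the same purified diet. The MYC mouse is heterozygous for a human c-MYC transgene under the ARR2Pb promoter, an androgen-responsive probasin promoter active in prostate epithelium. The WT mouse carries no transgene. Each lobe was enzymatically dissociated to a cell suspension that still held epithelial, stromal, endothelial and immune cells, and each of the 6 groups is 1 library from 1 mouse per genotype. No p-value can be given: genotype and individual mouse cannot be told apart, and the 3 lobes of a mouse are not replicates.

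As background, a D cyclin binds CDK4 or CDK6, and the complex phosphorylates the retinoblastoma protein and its relatives, which releases E2F factors for entry into S phase. INK4 proteins bind CDK4 and CDK6 and keep them from their cyclins. CIP/KIP proteins inhibit CDK2 complexes and also help D cyclin and CDK4 assemble. In the prostate, loss of p27 is a known event in human tumours. MYC is known as an activator of Cdk4, Ccnd2 and E2f genes and as a repressor of Cdkn1a and Cdkn2b through Miz-1, and excess MYC is known to engage p19Arf in cultured cells.

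Levels are given in FPKM, which counts fragments relative to transcript length and library depth. Such values can be set side by side between genes. Depth, recovered from the steps between low values, was 25.5 to 50.2 M mapped reads per library. Intervals given beside folds of FPKM are exact 95% intervals for counting error only and leave out the difference between animals. Log2 ratios are of FPKM + 1, which understates the change of low genes. A gene was called at a log2 ratio of at least 1 in size (2-fold) among the 12361 genes whose mean over the libraries reached 1 FPKM. Of the 10 members 9 passed that filter. Cdkn2a, with a mean under 1 FPKM, did not and is described apart.

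The libraries differ in ways that bear on the members. The Myc row, in which mouse and human transcripts were not separated, was at 1696 FPKM in MYC VP and 586 FPKM in MYC DLP, above the 201 to 230 FPKM of the WT lobes. In MYC AP it was at 231 FPKM, beside 230 FPKM in WT AP, so this row does not tell the AP libraries apart by genotype. The summed level of 6 seminal vesicle markers was 522 FPKM in MYC AP and at most 9.17 FPKM in every other library. Luminal markers were present in all libraries: their summed level over 6 genes was 3468 FPKM in WT VP, 2840 FPKM in MYC VP and 1335 to 1579 FPKM in the other 4 libraries. In bulk samples, fewer cells of a type and less RNA per cell cannot be told apart.

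The members with the widest relative range across the libraries were the neighbours Cdkn2a and Cdkn2b, which lie on the minus strand of chromosome 4 with 11669 bases between them. Cdkn2a spans chr4:89274473-89294619 and Cdkn2b chr4:89306289-89311032 in GRCm38.p6, the assembly whose primary chromosomes are mm10. The windows at their transcript starts, 250 bases before and 50 bases from the start, are shown because these members were the highest in MYC VP relative to WT VP. They were taken from RefSeq (GRCm38.p6), are written 5′ to 3′ on the minus strand, and have the matched motifs in capitals. Cdkn2a has a pair of starts, and the downstream one precedes the first exon of p16 while the upstream one precedes that of p19Arf.
Cdkn2a, p16 start, chr4:89282143-89282442: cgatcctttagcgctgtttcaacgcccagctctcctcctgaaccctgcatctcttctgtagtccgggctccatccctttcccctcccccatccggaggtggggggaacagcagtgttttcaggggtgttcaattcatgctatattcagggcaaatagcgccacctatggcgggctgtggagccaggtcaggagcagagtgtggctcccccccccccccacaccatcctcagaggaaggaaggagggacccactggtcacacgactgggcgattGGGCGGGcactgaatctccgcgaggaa
Cdkn2a, p19Arf start, chr4:89294570-89294869: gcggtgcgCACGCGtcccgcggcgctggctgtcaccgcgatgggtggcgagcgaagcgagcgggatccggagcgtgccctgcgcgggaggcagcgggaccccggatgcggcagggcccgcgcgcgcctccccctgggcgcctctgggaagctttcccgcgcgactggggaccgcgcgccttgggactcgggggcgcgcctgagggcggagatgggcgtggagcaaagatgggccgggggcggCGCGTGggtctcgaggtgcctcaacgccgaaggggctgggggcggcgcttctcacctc
Cdkn2b, chr4:89310983-89311282: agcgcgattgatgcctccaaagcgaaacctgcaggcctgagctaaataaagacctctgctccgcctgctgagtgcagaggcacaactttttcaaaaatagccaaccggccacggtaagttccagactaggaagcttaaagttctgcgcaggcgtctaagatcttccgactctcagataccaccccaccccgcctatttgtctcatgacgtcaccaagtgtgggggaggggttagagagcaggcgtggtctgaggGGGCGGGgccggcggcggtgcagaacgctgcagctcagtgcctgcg

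The motifs searched on both strands were the canonical E-box CACGTG, which MYC and its partner MAX bind, its variant CACGCG or CGCGTG, and the GC box GGGCGGG or CCCGCCC, which SP factors bind. These motifs do not overlap in the windows shown. The p16 window holds a GC box at base 274, counted from 1 at the 5′ end of the window. The p19Arf window holds the variant E-box at bases 9 and 243. The Cdkn2b window holds a GC box at base 255. A window was found for 7 of the 10 members, 11 windows in all, and none for Ccnd1, Ccnd2 and Cdkn1c. The canonical E-box was in 1 of the 11 windows, a Cdkn2c start at chr4:109665323-109665622, and in 7.15% of all 32851 RefSeq windows of that length. The variant E-box was in 3 member windows, those of p19Arf, Cdkn1b and Cdkn2d, and in 9.27% of all windows. Cdkn1b and Cdkn2d had MYC to WT log2 ratios of -0.44 and 0.10 in VP. The GC box was in 7 member windows and 25.6% of all windows. A match is a string of letters and not a measured site.

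Of the D cyclins, Ccnd1 and Ccnd2 were lower in MYC VP than in WT VP, and Ccnd3 differed little between any libraries. Ccnd1 (chr7:144929931-144939831), the D cyclin best known from human cancers, was at 16.8, 30.0 and 33.4 FPKM in WT VP, DLP and AP. In the MYC mouse it was at 8.74 FPKM in VP, 36.4 FPKM in DLP and 31.4 FPKM in AP. MYC VP held the lowest level of Ccnd1 and WT VP the next, so VP was below DLP and AP in both mice. Between the genotypes Ccnd1 was 1.92-fold lower in MYC VP (1.80 to 2.05), a log2 ratio of -0.87 that is short of 2-fold as deposited and past it, at -1.08 and -1.12, under 2 of the 4 other scalings, and 8.07% of the genes compared had a lower ratio. It was 1.21-fold higher in MYC DLP (1.17 to 1.26) and 1.06-fold lower in MYC AP (1.02 to 1.11), where the sign turns when values are set relative to the luminal keratins Krt8 and Krt18.

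Ccnd2 (chr6:127125162-127152188), which is used widely in stromal and blood cells as well as in epithelium, was at 8.14, 9.56 and 8.89 FPKM in WT VP, DLP and AP. The WT lobes lay within 1.17-fold of each other. In the MYC mouse it was at 2.12 FPKM in VP, 7.44 FPKM in DLP and 7.65 FPKM in AP, so MYC VP stood apart below every other library. Ccnd2 was 3.84-fold lower in MYC VP than in WT VP (3.48 to 4.24), a log2 ratio of -1.55, and only 1.89% of the genes compared had a lower one. It kept this direction under the 4 other scalings, at -1.76 to -1.13. Its log2 ratio was -0.32 in DLP and -0.19 in AP. Of the marker lists, fibroblast markers were below their WT level in MYC VP for 5 of 6 genes, with sums of 648 and 195 FPKM, and basal epithelial and smooth muscle markers for 6 of 6 each, as were the 6 luminal markers. Endothelial markers, at 24.5 and 26.0 FPKM, were near equal, and hematopoietic markers were higher, at 21.2 and 56.0 FPKM with 4 of 6 called. The part of these cell types in the lower Ccnd1 and Ccnd2 of MYC VP was not tested. A long noncoding gene that overlaps Ccnd2, 9330179D12Rik, was at no more than 0.562 FPKM in any library.

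Ccnd3 (chr17:47505051-47599689) was at 33.0, 27.6 and 27.5 FPKM in WT VP, DLP and AP and at 36.8, 31.9 and 33.6 FPKM in the MYC lobes. Its highest level was 1.34-fold its lowest, the narrowest range of the members. The log2 ratio of MYC to WT was 0.15 in VP, 0.20 in DLP and 0.28 in AP, and its sign turns under 2 of the 4 other scalings in VP and under 1 in DLP. Bysl, a gene that overlaps Ccnd3, was at 4.41 to 8.02 FPKM.

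**Figure D1:**
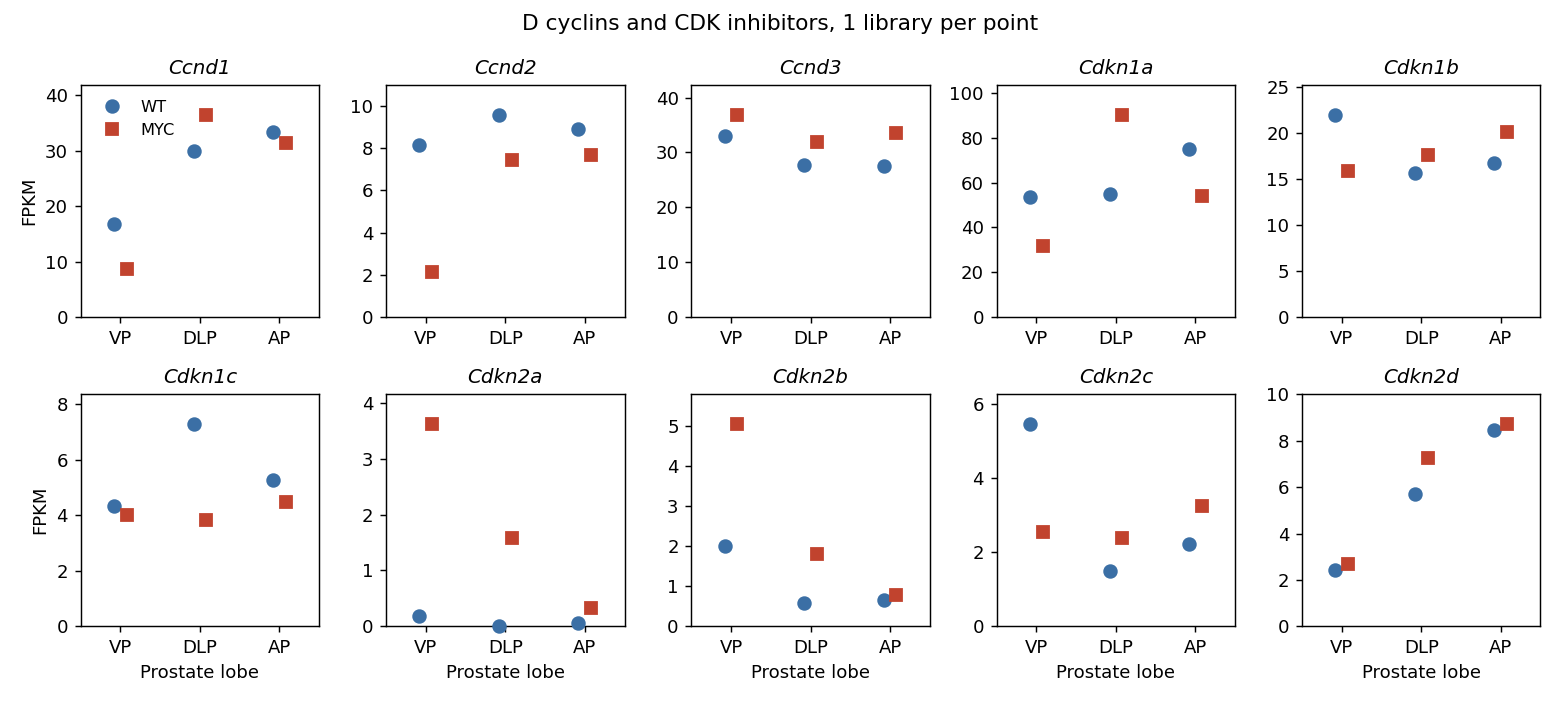
FPKM of the 10 members (vertical axes, linear, each panel with its own range) in VP, DLP and AP, 1 library per point, circles for WT and squares for MYC. Ccnd1 and Ccnd2 are lowest in MYC VP, Cdkn2b is highest there at 5.04 FPKM, and Cdkn2d is at 2.44 and 2.68 FPKM in the VP libraries against at least 5.69 FPKM elsewhere.

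The makeup of the D cyclin pool, which does not depend on how libraries are scaled, therefore differed in VP. Ccnd3 made up 57.0% of the summed D cyclin FPKM in WT VP but 77.2% in MYC VP, while Ccnd1 went from 29.0% to 18.3% and Ccnd2 from 14.0% to 4.46%. In DLP the shares of Ccnd1 were 44.6% in WT and 48.0% in MYC, and those of Ccnd3 41.1% and 42.1%. In AP, Ccnd1 held 47.8% in WT and 43.2% in MYC. Ccnd1 and Ccnd3 were thus near equal in DLP and AP of both mice, with Ccnd3 over Ccnd1 at 0.823 to 1.07, whereas that ratio reached 4.21 in MYC VP and 1.97 in WT VP. The summed D cyclin level was 58.0 FPKM in WT VP but 47.6 FPKM in MYC VP, 67.2 and 75.7 FPKM in DLP, and 69.7 and 72.6 FPKM in AP.

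**Figure D2:**
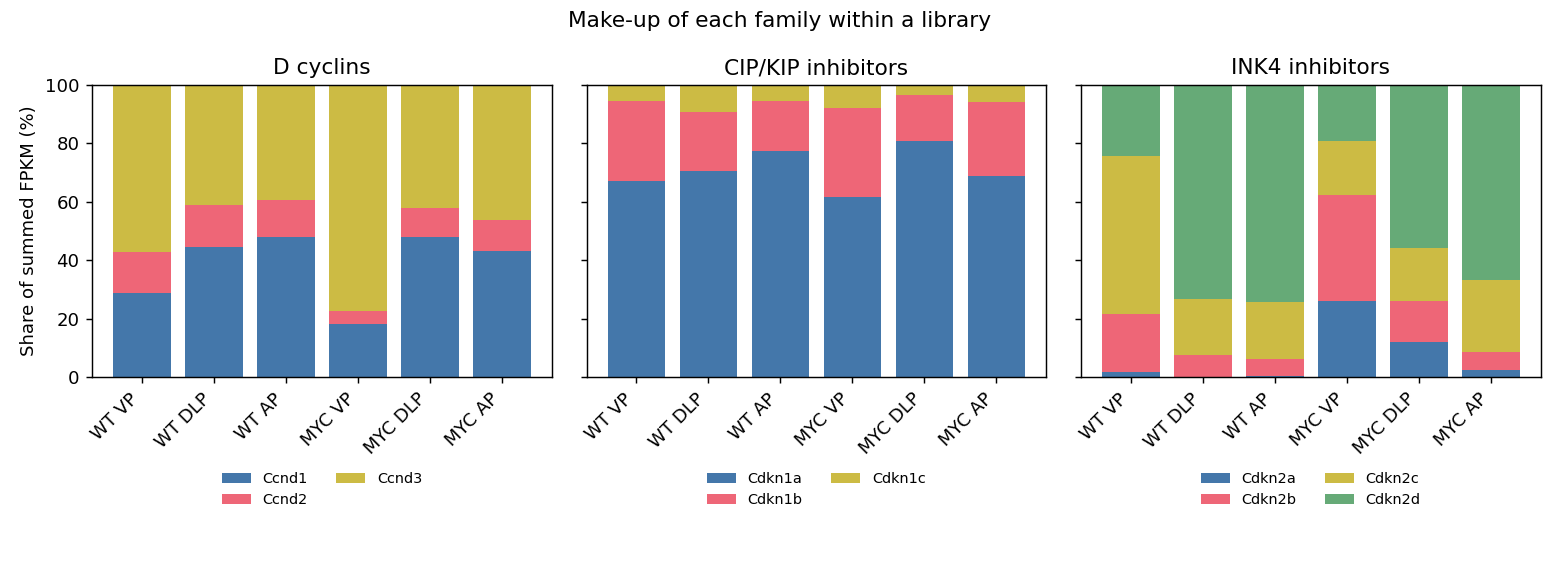
Share of each member in the summed FPKM of its family (percent), 1 bar per library, for the D cyclins, the CIP/KIP inhibitors and the INK4 inhibitors. Ccnd3 takes 77.2% of the D cyclins in MYC VP, and Cdkn2a and Cdkn2b take 26.1% and 36.3% of the INK4 inhibitors there.

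Of the kinases that the D cyclins bind, Cdk4 was higher in MYC VP and DLP, while Cdk6, like Ccnd1, was lowest in MYC VP and highest in MYC DLP. Cdk4 was at 29.2, 35.2 and 28.6 FPKM in WT VP, DLP and AP and at 105, 79.2 and 38.6 FPKM in the MYC lobes, past 2-fold in VP and DLP at log2 ratios of 1.81 and 1.15. Cdk6 was low throughout, at 0.705 FPKM in MYC VP and 1.71 to 3.92 FPKM in the other libraries. The sum of both kinases over the sum of the D cyclins was 0.446 to 0.549 in the WT lobes, 2.22 in MYC VP, 1.10 in MYC DLP and 0.570 in MYC AP. MYC VP was the only library in which kinase transcripts were more than 2-fold as abundant as D cyclin transcripts. Against the INK4 inhibitors, the kinase sum was 2.73 to 4.74 in the WT lobes, 7.61 in MYC VP, 6.40 in MYC DLP and 3.17 in MYC AP. These are ratios of transcript levels and do not measure complexes.

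**Figure D3:**
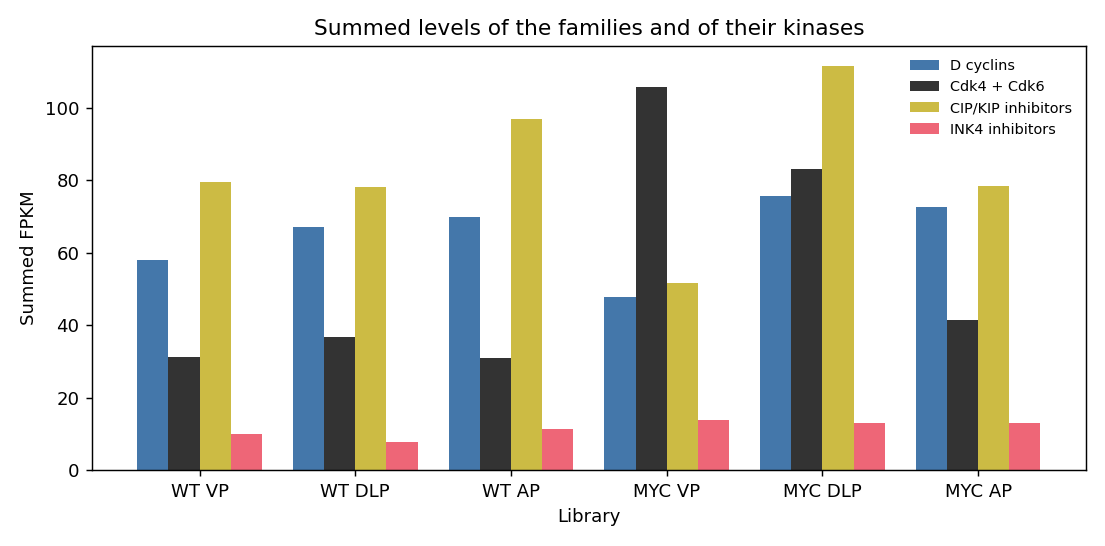
Summed FPKM of the D cyclins, of Cdk4 and Cdk6, of the CIP/KIP inhibitors and of the INK4 inhibitors, 1 group of bars per library. The kinase bar exceeds the D cyclin bar in MYC VP (106 against 47.6 FPKM) and MYC DLP (83.1 against 75.7 FPKM) and lies below it in the other 4 libraries.

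Among the CIP/KIP inhibitors, Cdkn1a differed between MYC and WT in opposite directions by lobe. Cdkn1a (chr17:29090979-29100722), a p53 target that also responds to many kinds of stress, was the most abundant inhibitor in every library. It was at 53.3, 55.0 and 74.8 FPKM in WT VP, DLP and AP and at 31.7, 90.0 and 53.9 FPKM in MYC VP, DLP and AP. MYC VP was thus the lowest library and MYC DLP the highest. Cdkn1a was 1.68-fold lower in MYC VP (1.57 to 1.80), 1.63-fold higher in MYC DLP (1.55 to 1.72) and 1.39-fold lower in MYC AP (1.31 to 1.47), at log2 ratios of -0.73, 0.70 and -0.47, none of them past 2-fold. In AP, 4.83% of genes had a lower ratio than Cdkn1a. Basal epithelial markers, summed over 6 genes, were at 481 and 332 FPKM in WT and MYC VP, 1033 and 1370 FPKM in DLP, and 1470 and 950 FPKM in AP, so the sum, mostly Krt14 and Krt15, had the direction of Cdkn1a in each lobe. The single basal markers did not all share it: in DLP 4 of 6 were above and 2, Dst and Itga6, below their WT level, and in AP Krt14 was called lower and Trp63 higher. The part of basal cells in this result was not tested.

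Cdkn1b (chr6:134920401-134925525) encodes p27, whose protein level is set largely by degradation through the ubiquitin ligase subunit Skp2. It varied little, at 21.9, 15.7 and 16.7 FPKM in WT VP, DLP and AP and 15.9, 17.6 and 20.1 FPKM in the MYC lobes, a range of 1.40-fold. WT VP was highest, MYC AP next, and the other 4 libraries lay between 15.7 and 17.6 FPKM. Its log2 ratio of MYC to WT was -0.44 in VP, 0.16 in DLP, where 1 of 4 other scalings turns the sign, and 0.25 in AP.

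Cdkn1c (chr7:143458339-143461059), an imprinted gene that encodes p57, was at 4.33, 7.28 and 5.28 FPKM in WT VP, DLP and AP and at 4.01, 3.84 and 4.46 FPKM in the MYC lobes. WT DLP was the highest library, and the MYC lobes differed by 1.16-fold at most. Cdkn1c was 1.89-fold lower in MYC DLP than in WT DLP (1.62 to 2.22), a log2 ratio of -0.77, with 5.92% of genes lower. The ratio was -0.09 in VP and -0.20 in AP, and in VP its sign turns under 1 of the other scalings. The 6 smooth muscle markers summed to 419 FPKM in WT DLP but 245 FPKM in MYC DLP, all 6 below their WT level there. The fibroblast markers split in DLP, 3 above and 3 below their WT level, with Col1a1 and Col3a1 called higher and Pdgfra and Dcn called lower; their sum of 1284 FPKM in WT and 698 FPKM in MYC is mostly Dcn. In VP the smooth muscle sum was also lower in MYC, 358 against 220 FPKM, while Cdkn1c differed by 1.08-fold, and in AP it was higher, 233 against 373 FPKM, while Cdkn1c was 1.18-fold lower. The part of stromal cells in the Cdkn1c values was not tested.

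Within the CIP/KIP family, Cdkn1a made up 67.0%, 70.6% and 77.3% of the summed FPKM in WT VP, DLP and AP and 61.5%, 80.8% and 68.7% in the MYC lobes. Cdkn1b held 15.8% to 30.7% and Cdkn1c 3.45% to 9.33%. The family sum was 79.6 FPKM in WT VP but 51.6 FPKM in MYC VP, 78.0 and 111 FPKM in DLP, and 96.8 and 78.5 FPKM in AP, so the order of the genotypes in each lobe was that of Cdkn1a.

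Of the INK4 inhibitors, Cdkn2a and Cdkn2b were higher in MYC VP and MYC DLP than in the matching WT lobes, Cdkn2c was lower in MYC VP only, and Cdkn2d followed the lobe and not the genotype. Cdkn2a was near the floor in the WT mouse, at 0.178 FPKM in VP and 0.0608 FPKM in AP and listed at 0 in DLP. In the MYC mouse it was at 3.62 FPKM in VP, 1.58 FPKM in DLP and 0.331 FPKM in AP. The estimated reads behind these values were 6, 0 and 1 in WT VP, DLP and AP and 103, 38 and 12 in the MYC lobes. Every MYC library lay above every WT library, and the MYC lobes were ordered VP, DLP, AP. Cdkn2a was 20.3-fold higher in MYC VP than in WT VP (9.21 to 57.8). No fold is given for DLP, and in AP the 5.45-fold difference has an interval from 0.902 to 261 that includes no difference. The FPKM of the symbol does not separate the p16 and p19Arf transcripts, which share exons.

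Cdkn2b, which encodes p15 and is known as a TGF-beta target, was at 2.0, 0.589 and 0.659 FPKM in WT VP, DLP and AP. In the MYC mouse it was at 5.04 FPKM in VP, 1.79 FPKM in DLP and 0.773 FPKM in AP. It was highest in VP in both mice, and its range of 8.56-fold was the widest of the members with no 0. Cdkn2b was 2.52-fold higher in MYC VP (2.01 to 3.15) and 3.04-fold higher in MYC DLP (2.0 to 4.74), and in AP the 1.17-fold difference has an interval from 0.677 to 2.09. On the scale of FPKM + 1 the ratios were 1.01, 0.81 and 0.10. The VP value lies at the edge of the 2-fold call and falls short of it under all 4 other scalings, at 0.80 to 0.98. The 6 hematopoietic markers summed to 21.2, 28.3 and 58.0 FPKM in WT VP, DLP and AP and to 56.0, 97.8 and 44.6 FPKM in the MYC lobes. Like Cdkn2a and Cdkn2b, the sum was higher in MYC in VP and DLP, but in AP it was lower in MYC. Of the single markers, 5 of 6 were above their WT level in VP, 6 of 6 in DLP and 2 of 6 in AP. MYC DLP held the highest sum, while MYC VP held the most of both Cdkn2a and Cdkn2b. The part of immune cells in these values was not tested. Estimated reads were 20 in WT AP and 33 in WT DLP, the thinnest values behind these folds.

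Cdkn2c (chr4:109660876-109666756), which encodes p18, was at 5.44 FPKM in WT VP and at 1.49 and 2.21 FPKM in WT DLP and AP. In the MYC mouse it was at 2.55, 2.38 and 3.25 FPKM in VP, DLP and AP. WT VP alone stood high, and the lobes of the MYC mouse lay within 1.37-fold of each other. Cdkn2c was 2.13-fold lower in MYC VP than in WT VP (1.78 to 2.56), 1.60-fold higher in MYC DLP (1.25 to 2.10) and 1.47-fold higher in MYC AP (1.16 to 1.90). The log2 ratios of FPKM + 1, -0.86, 0.44 and 0.41, are all short of 2-fold as deposited, and the VP ratio is past it, at -1.03 and -1.07, under 2 of the 4 other scalings and, at -1.06, with a pseudocount of 0.1.

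Cdkn2d (chr9:21288459-21291421), which encodes p19Ink4d and not p19Arf, was at 2.44, 5.69 and 8.46 FPKM in WT VP, DLP and AP and at 2.68, 7.24 and 8.72 FPKM in the MYC lobes. The order VP, DLP, AP was the same in both mice. Within a lobe the genotypes differed by 1.10-fold in VP, 1.27-fold in DLP (1.07 to 1.51) and 1.03-fold in AP, and only the DLP interval leaves out no difference. The sign of the log2 ratio turns under 2 of the other scalings in VP and in AP. The 6 endothelial markers summed to 24.5, 113 and 149 FPKM in WT VP, DLP and AP and to 26.0, 126 and 164 FPKM in the MYC lobes, the same order of libraries as for Cdkn2d. The part of endothelial cells in the Cdkn2d levels was not tested.

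**Figure D4:**
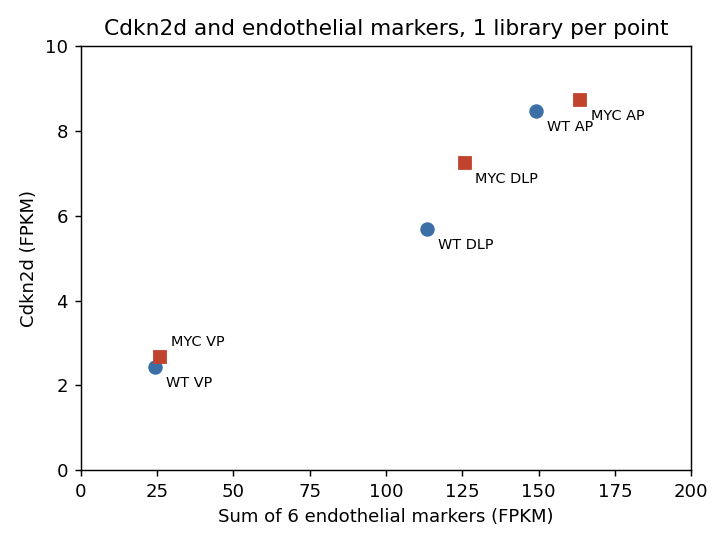
FPKM of Cdkn2d (vertical axis) against the summed FPKM of 6 endothelial markers (horizontal axis), 1 point per library, circles for WT and squares for MYC. The VP libraries lie lowest on both axes (2.44 and 2.68 FPKM of Cdkn2d) and the AP libraries highest (8.46 and 8.72 FPKM).

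The INK4 family thus had a different leading member by lobe and genotype. Cdkn2c led in WT VP with 54.1% of the summed FPKM, Cdkn2b in MYC VP with 36.3%, and Cdkn2d in DLP and AP of both mice with 55.7% to 74.3%. Cdkn2a held at most 1.77% in a WT lobe and 26.1%, 12.1% and 2.53% in MYC VP, DLP and AP. The summed INK4 level differed less than its makeup, at 10.1, 7.77 and 11.4 FPKM in WT VP, DLP and AP and 13.9, 13.0 and 13.1 FPKM in the MYC lobes. Relative to the D cyclins, the INK4 sum was 0.116 to 0.180 in all libraries but MYC VP, where it was 0.292.

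In VP, 2 of the 9 members compared were past 2-fold between MYC and WT, Cdkn2b higher (a call lost under the 4 other scalings) and Ccnd2 lower, where 12.8% of all genes compared were past 2-fold in either direction, 6.88% higher and 5.95% lower. Scaled to equal sums of FPKM, 0 were higher and 3 lower, Ccnd1, Ccnd2 and Cdkn2c, and the share of all genes under that scaling was not taken. The median log2 ratio of the members was -0.44, beside 0.04 over all genes. Without the filter Cdkn2a was called as well, where 3.76% of all 24908 genes were at least 2-fold higher. In DLP none of the 9 members was past 2-fold, against 9.85% of genes, with medians of 0.27 and 0.03. Without the filter Cdkn2a was called there, where 3.85% of all genes were higher. In AP none of the 9 members was past 2-fold, against 2.65% of genes, and the medians were 0.04 and 0.13. Other scalings moved the median of all genes by up to -0.22 in VP, -0.20 in DLP and 0.16 in AP.

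**Figure D5:**
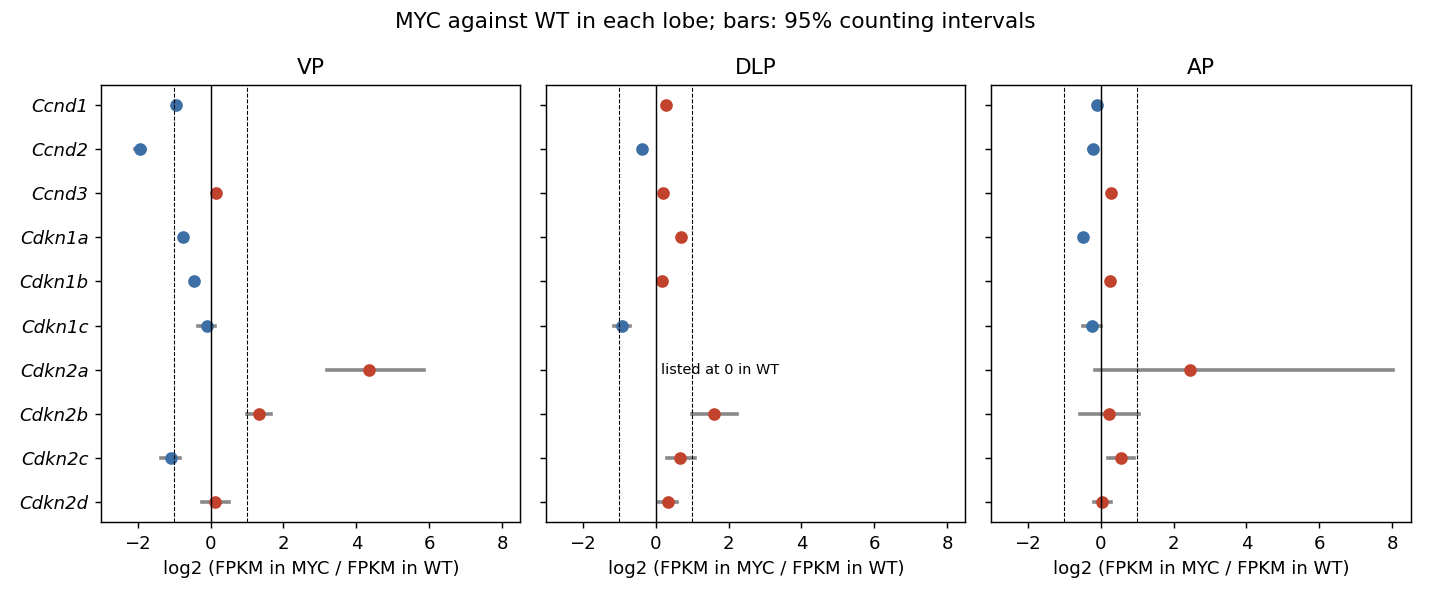
Log2 of FPKM in MYC over FPKM in WT, with no pseudocount, for each member in VP, DLP and AP. Bars are exact 95% counting intervals, dashed lines mark 2-fold, and 1 library per group stands behind each point. In VP, Ccnd2 lies 3.84-fold lower and Cdkn2a 20.3-fold higher, and Cdkn2c, 2.13-fold lower, passes the dashed line there but not the call on FPKM + 1. Cdkn2a has no point in DLP, where WT is listed at 0.

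Lobes of the same mouse were compared in pairs, 3 per genotype. In the WT mouse, Cdkn2c was the only one of the 9 members past 2-fold between VP and DLP, where 8.92% of genes were and 2.63% were higher in VP. It was 3.66-fold higher in VP (2.98 to 4.58), a call that ends relative to Krt8 and Krt18, where 7 other members were lower in VP. Krt8 and Krt18 were at 1292 and 1611 FPKM in WT VP but 446 and 526 FPKM in WT DLP. Scaling to them therefore lowers every gene in VP relative to DLP. The share of all genes called under other scalings was not taken. Between WT VP and AP, 2 members were past 2-fold, where 18.2% of genes were, 7.89% higher in VP and 10.3% lower. Cdkn2c was 2.47-fold higher in VP (1.97 to 3.15) and Cdkn2d 3.47-fold higher in AP (2.78 to 4.32). The Cdkn2c call ends with equal sums of FPKM, where Ccnd1 is called instead (0 higher and 2 lower in VP), and relative to Krt8 and Krt18 (0 higher and 7 lower). Ccnd1 was 1.99-fold higher in AP (1.89 to 2.09) and 1.79-fold higher in DLP than in VP, both short of the call on FPKM as deposited. On FPKM, though not on the scale of FPKM + 1, past 2-fold were also Cdkn2b, 3.40-fold higher in VP than in DLP (2.31 to 5.21) and 3.03-fold higher than in AP (1.89 to 5.18), and Cdkn2d, 2.33-fold lower in VP than in DLP (1.89 to 2.89). No member was past 2-fold between WT DLP and AP, where 5.16% of genes were.

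In the MYC mouse VP was past 2-fold from DLP for more members than in the WT mouse on FPKM as deposited. Relative to Krt8 and Krt18 the counts were 5 in MYC and 7 in WT. Krt8 was at 1101 FPKM in MYC VP and at 531 and 388 FPKM in MYC DLP and AP, so that scaling lowers every gene in VP here too. These counts have no share of all genes beside them, and the difference between the mice was not tested. Between MYC VP and DLP, 5 of 9 members were past 2-fold, where 17.6% of genes were. Cdkn2b was 2.81-fold higher in VP, where 3.54% of genes were called higher, and Ccnd1, Ccnd2, Cdkn1a and Cdkn2d were lower in VP, where 14.0% of genes were lower. The largest of these was Ccnd1, 4.16-fold higher in DLP (3.91 to 4.43). Ccnd2 was 3.51-fold, Cdkn1a 2.84-fold and Cdkn2d 2.71-fold higher in DLP. Between MYC VP and AP, 4 members were past 2-fold, where 25.1% of genes were, 8.98% higher in VP and 16.1% lower. Cdkn2b was 6.52-fold higher in VP, while Ccnd1 was 3.59-fold, Ccnd2 3.60-fold and Cdkn2d 3.26-fold higher in AP. Relative to Krt8 and Krt18 the Cdkn2b call ends in both pairs, and 5 members against DLP and 8 against AP were lower in VP with 0 higher. Cdkn2a, below the filter, was 2.29-fold higher in MYC VP than in MYC DLP and 10.9-fold higher than in MYC AP. None of the 9 members was past 2-fold between MYC DLP and AP on the scale of FPKM + 1, where 8.03% of genes were. On FPKM, Cdkn2b was 2.32-fold (1.59 to 3.43) and Cdkn2a 4.77-fold (2.34 to 9.62) higher in MYC DLP than in MYC AP. The VP comparisons of a mouse share its VP library, so their calls are not independent.

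Genes around the members in the pathway were taken from 5 lists. Of 50 genes compared of 53 listed, 12 were past 2-fold in VP, 11 higher and 1 lower, where 6.88% of all genes compared were higher and 5.95% lower. In DLP 9 were, 8 higher and 1 lower, where 6.46% and 3.39% of all genes were. In AP 3 were, all higher, where 2.05% of all genes were. Among the G1/S CDKs and cyclins, 2 of 9 were higher and none lower in VP, with a list median of 0.45. These were Cdk4 and Ccna2, the cyclin of S phase, which was at 0.190 FPKM in WT VP but 6.50 FPKM in MYC VP. Among the pocket proteins and E2F factors, 2 of 11 were higher in VP, with a median of 0.27. E2f8, an atypical E2F, went from 0.344 to 3.85 FPKM and Tfdp1, the dimer partner of E2F, from 15.2 to 45.3 FPKM. Of 11 genes for the turnover of p27 and the D cyclins, Skp2 alone was past 2-fold in VP, at 0.322 FPKM in WT and 3.24 FPKM in MYC, with a list median of -0.06.

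Among 14 regulators of the inhibitor genes, 2 were higher and 1 lower in VP, with a median of 0.04. Trp53, which encodes p53, the activator of Cdkn1a, was at 16.9, 24.6 and 28.3 FPKM in WT VP, DLP and AP and at 37.4, 39.5 and 29.0 FPKM in the MYC lobes. In VP, Trp53 was higher in MYC and Cdkn1a was lower. Ezh2, the Polycomb methyltransferase known to silence the Cdkn2a locus, was at 5.31 FPKM in WT VP but 11.7 FPKM in MYC VP, where Cdkn2a was also higher. The Ezh2 log2 ratio of 1.01 lies at the edge of the call. Id1, a helix-loop-helix repressor of Cdkn2a, was at 17.8 and 6.52 FPKM. In DLP, Smad3, which carries TGF-beta signals, was higher in MYC (11.8 against 24.7 FPKM), the 1 regulator called there. Mdm2, the p53 ligase and target, was at 20.7 to 30.8 FPKM over the 6 libraries. These are transcript levels, and the part of the regulators in the levels of the inhibitor genes was not tested. Of 5 proliferation markers, 4 were past 2-fold higher in VP and in DLP and 2 in AP, with medians of 2.26, 2.44 and 0.95. In VP, Mki67 was at 0.484 FPKM in WT against 12.8 FPKM in MYC, Top2a at 1.12 against 10.8 FPKM, Ccnb1 at 0.0763 against 4.15 FPKM and Mcm2 at 2.96 against 11.9 FPKM.

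In pattern over the 6 libraries, the genes most like each member but Cdkn2a, which is below the filter, were ranked by Pearson r of log2(FPKM + 1). The genes ranked were the 5359 or 5360 whose mean reached 10 FPKM. The ranking is a description, since 3 libraries share each mouse and 6 points allow high values for many genes. For Ccnd1 they were Ralb (0.995), Anxa5 (0.994) and Tmsb4x (0.991). Those of Ccnd2 were Chmp4b (0.993), Zswim8 (0.987) and Enpp1 (0.985), and those of Ccnd3 were Chmp2b (0.993), Upf2 (0.977) and Atf7ip (0.970). Cdkn1a was most like Krt16 (0.976), a keratin of stressed squamous epithelium, Card19 (0.969) and Arc (0.966). Cdkn1b was most like Per1 (0.951), Mir25 (0.931) and Sarnp (0.924), and Cdkn1c like Gm5547 (0.990), Rhoq (0.972) and Smim7 (0.964). For Cdkn2b they were Malt1 (0.994), Tmem150a (0.993) and Ewsr1 (0.992), and for Cdkn2c Prpf38b (0.975), Ik (0.951) and Taf15 (0.949). For Cdkn2d all 3 were genes known from endothelium, Esam (0.998), Flt1 (0.996) and Plvap (0.990).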

How the data were processed

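Bulk RNA-seq was performed on dissociated lobes, 3 from the WT mouse and 3 from the MYC mouse (6 libraries, poly(A), stranded, single-end). Per the methods and the submitters' processing notes, reads were aligned with STAR to mm10 within the VIPER pipeline and summarised with Cufflinks; the annotation is not given in the sources used here. The table deposited by the authors holds FPKM per gene symbol. The methods speak of counts and DESeq2, but the values are not whole, so no count model was used.

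Members were taken by symbol, and the members and gene lists were chosen with earlier results of these data known. Ratios were taken of log2(FPKM + 1) over 12361 genes whose mean reached 1 FPKM, and a call was 2-fold. All members were named. Of each pathway list, genes past 2-fold in VP were named, up to 6 by size, and of the genes most like a member the top 3. Genes of other cell types were summed as fixed lists. Reads were estimated from the steps between low FPKM of single-exon genes (62.0% to 72.2% of values were whole within 3%), giving 25.5 to 50.2 M mapped reads per library. The lowest depth scoring near the best was kept. Mean transcript lengths came from an annotation of the assembly before mm10, and a fragment of 200 bases was assumed. Exact 95% Clopper-Pearson intervals for folds follow from those estimated reads and cover counting error only. Other scalings, pseudocounts, filters and thresholds were tried. Calls and depth recovery were also run on simulated libraries with counting noise only, built with the same transcript lengths as the estimate. Such libraries cannot show an error in the lengths or a difference between animals, and their outcome is not given here. Promoter windows and coordinates came from RefSeq (GRCm38.p6). Tables were handled with pandas 2.3.3 and numpy 2.4.6 in Python 3.11.15, intervals computed with scipy 1.17.1 and plots drawn with matplotlib 3.10.9. Single-cell data of the study were not analysed here.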

Additional observations from a re-analysis of the deposited data

Results flagged for a closer look

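For 3 members the MYC to WT difference was on opposite sides in different lobes by at least 1 on the log2 scale, with 1 library per group. These differences between lobes were not tested, and the share of all genes with such a difference was not taken. For Ccnd1 the log2 ratio was -0.87 in VP and 0.27 in DLP, 1.14 higher in DLP. For Cdkn1a it was -0.73 in VP, 0.70 in DLP and -0.47 in AP, 1.43 higher in DLP than in VP, and the AP ratio minus the DLP ratio was -1.16. For Cdkn2c it was -0.86 in VP, 0.44 in DLP and 0.41 in AP, 1.30 and 1.27 higher in DLP and AP than in VP. The direction of each of these ratios was the same under the 4 other scalings, though the Ccnd1 ratio in DLP fell to 0.04 relative to Krt8 and Krt18. The gaps were also smaller under that scaling. For Ccnd1 the gap was then 0.63, for Cdkn1a 0.93 and -0.77, and for Cdkn2c 0.86 and 1.13, so that 4 of the 5 were under 1 in size.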

How the results depend on the processing

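With 1 library per group and 1 mouse per genotype, the intervals cover counting error only, and differences between animals are not measured. No paired analysis was possible because each group has 1 library and no test was run. Depth limits Cdkn2a most, at 0 to 6 estimated reads in the WT lobes and 12 in MYC AP.

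Of the alternatives to the counts of members past 2-fold, 55 stayed within 1.5 times the count and 26 did not. The 55 include counts that stayed at 0 and counts whose members changed. With equal sums of FPKM in VP, for example, Ccnd2 and Cdkn2b became Ccnd1, Ccnd2 and Cdkn2c. For MYC against WT VP the 2 members became 1 with size factors from medians of ratios and 1 relative to Krt8 and Krt18 (Cdkn2b lost its call under all 4 other scalings, while Ccnd1 and Cdkn2c reached -1.12 and -1.07 under the lowest), 5 at a 1.5-fold threshold, and 0 at 4-fold or with a minimum mean of 10 FPKM, which 4 members reach. In DLP the 0 became 1 relative to Krt8 and Krt18 (Cdkn1c), 1 with a pseudocount of 0.1 (Cdkn2b), 1 with no filter (Cdkn2a) and 3 at 1.5-fold. For WT VP against DLP the 1 member became 2 with size factors, 7 relative to Krt8 and Krt18 (all lower in VP, Cdkn2c lost), 3 with the pseudocount of 0.1, 5 at 1.5-fold, and 0 at 4-fold or a mean of 10 FPKM. For WT VP against AP the 2 became 7 relative to Krt8 and Krt18 (all lower in VP, Cdkn2c lost), 4 at 1.5-fold, and 0 at 4-fold or a mean of 10 FPKM. For MYC VP against DLP the 5 became 2 at a mean of 10 FPKM and 0 at 4-fold. For MYC VP against AP the 4 became 8 relative to Krt8 and Krt18 (all lower in VP, Cdkn2b lost), 1 at a mean of 10 FPKM and 0 at 4-fold. For MYC DLP against AP the 0 became 1 with the pseudocount of 0.1 and 2 at 1.5-fold. Of the pathway genes, the 12 in VP became 4 at a mean of 10 FPKM, 19 at 1.5-fold and 4 at 4-fold. The 9 in DLP became 2, 18 and 4, and the 3 in AP became 0, 5 and 0, and 6 with the pseudocount of 0.1. Under the 4 other scalings, 9 to 12 pathway genes were higher and 0 to 2 lower in VP, and 6 or 7 were higher in DLP. Leaving Cdkn2a out of its family moved the share of Cdkn2b in MYC VP from 36.3% to 49.1% and that of Cdkn2d in MYC DLP from 55.7% to 63.4%. The cause of these moves was not tested beyond what each setting removes. Shares of all genes past 2-fold were taken only on FPKM as deposited. The member counts under other scalings, thresholds and pseudocounts have no such share beside them.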
